A study of Mus musculus with 24 samples.

Results

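The 10 genes followed here encode 6 ligands of the epidermal growth factor (EGF) family and the 4 ErbB receptors. The ligands are amphiregulin (Areg), epiregulin (Ereg), heparin-binding EGF-like growth factor (Hbegf), betacellulin (Btc), transforming growth factor alpha (Tgfa) and neuregulin 1 (Nrg1). The receptors are Egfr, Erbb2, Erbb3 and Erbb4. They were chosen by gene symbol from a table of 56691 gene rows, where the 10 symbols stood on 11 rows. The second Nrg1 row had 0 counts in all 24 libraries, and the first Nrg1 row is used throughout. All 10 genes passed the filter on low counts when lesions were in the fit, and all but Erbb4 passed it among uterine libraries alone.

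EGF family ligands are made as membrane-bound precursors, and proteases such as ADAM17 cut them free. Egfr binds amphiregulin, transforming growth factor alpha and the related EGF-like ligands, whereas neuregulins bind Erbb3 and Erbb4. Erbb2 has no known ligand of its own and acts as a partner in receptor pairs, and Erbb3 has a very weak kinase and signals through its partners. In the mouse uterus Areg is known as a progesterone-induced gene of the epithelium before implantation, and Hbegf as a gene induced where the blastocyst attaches.

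RNA sequencing was made of lesions and eutopic uterus of mice with surgically induced endometriosis, in which endometrial tissue grows outside the uterus, and of uterus from sham-operated mice. Each tissue was collected 1 month and 3 months after surgery, with 4 libraries for each of the 6 groups. Surgery was done at 8 weeks of age, so the mice at 3 months were older, and all tissue was taken on day 3.5 of pregnancy after mating with stud males. The labels call the mice at 1 month fertile, the mice with endometriosis at 3 months subfertile and the sham mice at 3 months fertile. All mice were of a mixed C57BL/6 and SV129 background and carried the Rosa26mTmG/+ reporter, which changes colour in cells where Cre recombinase has acted. Lesions are labelled Pgrcre/+Rosa26mTmG/+, in which Cre is driven from the progesterone receptor gene, while eutopic and sham uterus are labelled Rosa26mTmG/+ without Cre. The series text gives the Cre allele to the mice with endometriosis, so genotype cannot be told apart from tissue by the labels, or from surgery by that text. The labels do not tie a library to an animal, and p-values measure the spread between these libraries.

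Total counts ran from 4.51e+07 to 5.94e+07 per library. Levels are CPM, read counts scaled to a common library total after TMM scaling of library sizes. Lesion libraries 1 and 2 at 3 months, lesion library 2 at 1 month and sham library 4 at 3 months stood apart from their groups. The summed level of 12 luminal epithelium markers was 135.6, 60.89, 1226 and 888.7 CPM in lesion libraries 1 to 4 at 3 months, against 1284 to 1703 CPM in eutopic uterus. None of these markers was at 0 in any lesion library at 3 months, and at 1 month the sum was 1144 to 1470 CPM in lesions against 1121 to 2030 CPM in the eutopic group. Genes of ovarian steroid-making cells reached a sum of 23100 CPM in lesion library 1 at 3 months, and one of 27.15 to 272.3 CPM in the other 3. The sum of skeletal muscle markers was 4.08, 43780, 13610 and 7186 CPM in lesion libraries 1 to 4 at 3 months, against 98.53 to 163.9 CPM in eutopic uterus, and that of pancreas and liver markers was 83620 CPM in lesion library 2 at 1 month. Sham library 4 at 3 months had 511.9 CPM of the progesterone receptor gene Pgr, against 181.9 to 261 CPM in the other sham libraries of that time. For the 10 genes, some lesion results are also given without the lesion libraries among these. Such a fit leaves only lesion libraries 3 and 4 at 3 months, and lacks lesion library 2 of 1 month too. The 2 lesion libraries left at 3 months also had skeletal muscle sums far above eutopic uterus, 13610 and 7186 CPM. Not every value that such a fit may move is shown, as for Nrg1 at 3 months. The counts of the pathway lists were repeated without the 3 lesion libraries.

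Levels per kilobase of exon placed the receptors Egfr, Erbb2 and Erbb3 above every ligand in sham uterus at 1 month. On that scale Egfr had 11.01 ± 0.757, Erbb2 8.51 ± 0.613 and Erbb3 7.13 ± 1.78 CPM per kilobase (SD, n = 4). Erbb4 had 0.00871 ± 0.00159 CPM per kilobase and was the least abundant of the 10. Among the ligands Areg had 3.83 ± 2.16 CPM per kilobase, Tgfa 2.38 ± 0.363 and Hbegf 1.36 ± 0.0909. Btc had 0.495 ± 0.152, Nrg1 0.415 ± 0.601 and Ereg 0.0367 ± 0.0180 CPM per kilobase. Exon lengths were merged exons of GENCODE M21, since the annotation behind the counts is not given in the sources used here.

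Between lesions and eutopic uterus, both ligands and receptors passed the test. Areg was lower in lesions at both times, and Ereg, its neighbour on the chromosome, was higher in lesions at 3 months. Egfr, Erbb2 and Erbb3 were lower in lesions at 3 months, and Erbb4, close to its detection limit, was higher in lesions at 1 month. At 1 month 2 of the 10 genes passed an adjusted p of 0.05 (Benjamini-Hochberg, edgeR's quasi-likelihood test), 1 in each direction, where 20.7% of the 22249 genes tested passed, 12.0% higher and 8.76% lower. That count includes Erbb4, which entered the test only through its level in lesions. At 3 months 5 of the 10 passed in edgeR, 1 higher and 4 lower, where 40.5% of all genes tested passed, 23.4% higher and 17.1% lower. Both shares of members stand close to the background of these comparisons, whose medians over all genes tested were -0.01 at 1 month and 0.04 at 3 months on the log2 scale, against -0.02 and 0.31 for the 10 genes. The libraries of the compared groups did not overlap for 3 of the 10 genes at 1 month, against 31.6% of all genes tested, and for 4 at 3 months, against 23.9%. With a block for the replicate number and only the compared groups in the fit, none of the calls at 3 months remained. The share of all genes tested that passed in that fit is not given here. That count therefore does not tell a change of the members from a change of the whole comparison.

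**Figure D1:**
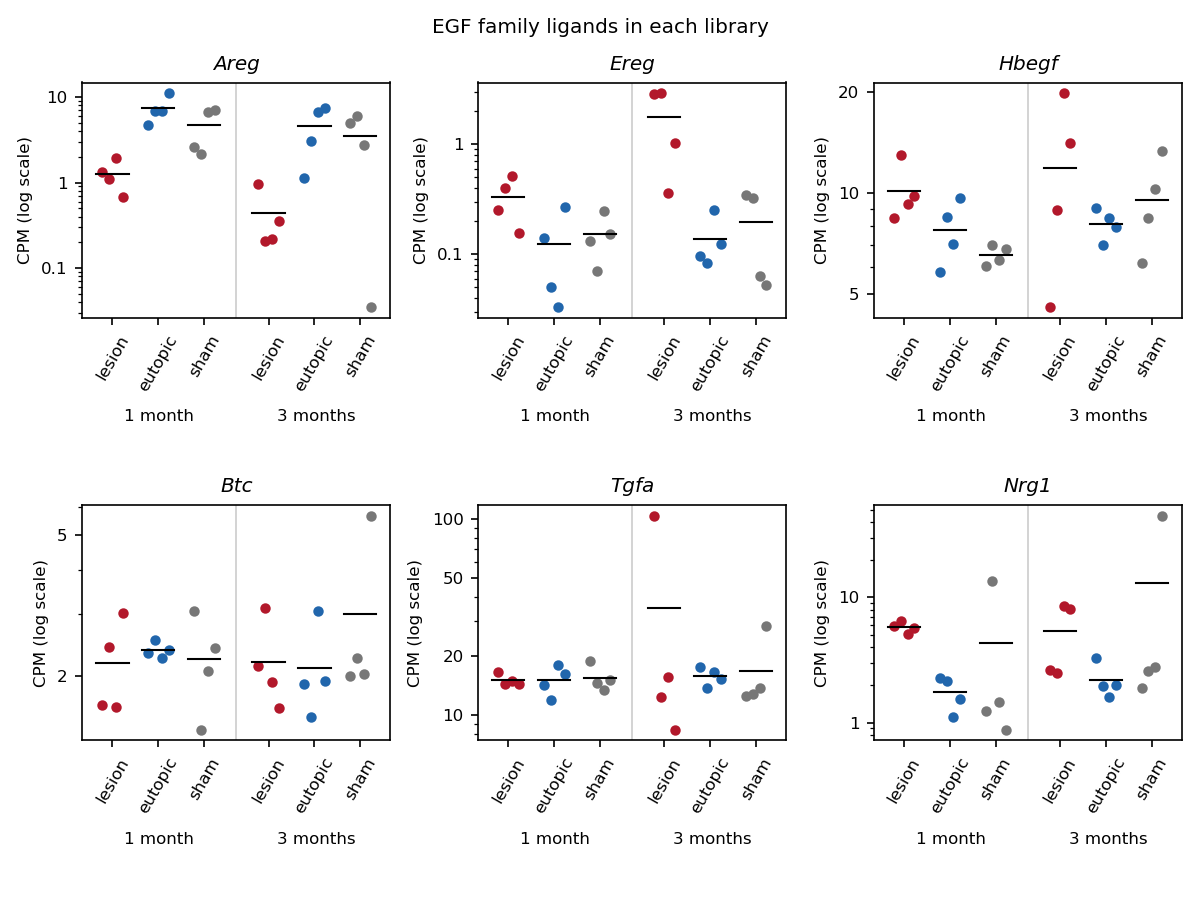
Level of each EGF family ligand in each library, in CPM on a log axis (each point a library, red lesions, blue eutopic uterus, grey sham uterus; bars are group means of 4 libraries). Areg lies lower in lesions than in eutopic uterus at both times, Ereg lies higher in lesions at 3 months, and single libraries stand high for Tgfa (103.4 CPM in a lesion) and Nrg1 (44.83 CPM in a sham uterus).

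Areg encodes amphiregulin, a low-affinity ligand of Egfr. It had 1.33, 1.09, 1.95 and 0.683 CPM in the 4 lesion libraries at 1 month, against 4.72, 6.78, 6.87 and 11.03 CPM in eutopic uterus. Every lesion library lay below every eutopic library. At 3 months Areg had 0.973, 0.210, 0.219 and 0.359 CPM in lesions, against 1.14, 3.09, 6.68 and 7.498 CPM in eutopic uterus. The groups again did not overlap, although eutopic library 1 lay close to the highest lesion. The log2 fold change in edgeR was -2.54 ± 0.83 (SE, adjusted p = 0.036) at 1 month and -3.37 ± 0.87 (adjusted p = 0.00457) at 3 months. In bulk tissue, fewer cells that express a gene and less RNA per cell cannot be told apart.

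The 1-month call for Areg was close to the threshold. It was lost without lesion library 1, 2 or 4, or without eutopic library 2, 3 or 4 (log2 -2.84 to -2.29 over all left-out libraries, highest adjusted p = 0.102 in edgeR). With a block for the replicate number and only the compared groups in the fit, the 3-month call was lost. It held with each library left out (log2 -4.12 to -3.04). Without lesion libraries 1 and 2 together, which left lesion libraries 3 and 4, it also passed (log2 -3.99 ± 1.197, adjusted p = 0.0124 in edgeR). Lesion libraries 1 and 2 had the lowest epithelial marker sums, and the Areg levels of lesion libraries 3 and 4, whose sums were higher, were 0.219 and 0.359 CPM. Divided by the luminal marker sum, Areg stood at 7.177, 3.443, 0.178 and 0.404 CPM per 1000 CPM of markers in lesion libraries 1 to 4 at 3 months, against 0.817 to 4.403 in eutopic uterus. On that scale libraries 3 and 4 lay below eutopic uterus, library 2 within its range and library 1 above it. At 1 month Areg stood at 0.594 to 1.327 in lesions and 3.708 to 5.433 in eutopic uterus on the same scale. The part of tissue makeup in the Areg difference was not tested. In limma voom the 3-month difference was -4.07 and missed the threshold (adjusted p = 0.0898), as did the 1-month difference in edgeR without a filter (-2.55, adjusted p = 0.0517). The largest lesion value at 3 months, 0.973 CPM, was in library 1, which held the ovarian transcripts.

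The Areg level was 4.72 to 11.03 CPM in eutopic and 2.18 to 7.10 CPM in sham libraries at 1 month, and the groups overlapped. At 3 months sham libraries 1 to 4 had 4.99, 6.05, 2.76 and 0.0350 CPM, so that library 4 held 2 counts of Areg. Lesions lay below all sham libraries at 1 month, while at 3 months the groups overlapped because of sham library 4.

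The Areg promoter is shown because Areg was the ligand with a call at both times, and those of Egfr and Erbb2 because these receptors were called lower in lesions at 3 months. Each is the 250 bases before the gene's start in RefSeq on GRCm38.p6, written 5′ to 3′ on the gene's own strand, with capitals marking matches to the motifs searched.
Areg, chr5:91139349-91139598, plus strand: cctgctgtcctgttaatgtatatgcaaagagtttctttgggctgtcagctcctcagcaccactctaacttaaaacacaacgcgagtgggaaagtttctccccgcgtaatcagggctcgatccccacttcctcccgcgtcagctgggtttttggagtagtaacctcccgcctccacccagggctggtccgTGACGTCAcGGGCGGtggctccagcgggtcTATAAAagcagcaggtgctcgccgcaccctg
Egfr, chr11:16751953-16752202, plus strand: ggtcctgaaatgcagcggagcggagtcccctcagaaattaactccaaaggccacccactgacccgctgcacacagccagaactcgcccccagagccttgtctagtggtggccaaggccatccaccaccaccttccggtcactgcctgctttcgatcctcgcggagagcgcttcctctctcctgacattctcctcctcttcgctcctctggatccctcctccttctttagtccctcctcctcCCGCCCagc
Erbb2, chr11:98412234-98412483, plus strand: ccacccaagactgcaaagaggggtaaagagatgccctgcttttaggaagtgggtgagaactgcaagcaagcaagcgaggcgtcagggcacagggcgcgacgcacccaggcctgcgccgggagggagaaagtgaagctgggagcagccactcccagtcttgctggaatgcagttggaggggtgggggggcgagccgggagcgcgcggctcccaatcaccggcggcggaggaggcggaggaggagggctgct

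The letters searched on both strands were the cyclic AMP response element TGACGTCA, the AP-1 site TGANTCA, the progesterone receptor half-site TGTTCT, the TATA box TATAAA and the GC box GGGCGG. Upstream of Areg the first began 61 bases, the GC box 52 bases and the TATA box 31 bases before the start, without overlap between them. Of 32851 promoters of the same length, 1.55% held the cyclic AMP response element, 12.4% the TATA box and 32.7% the GC box. The AP-1 site (6.75% of promoters) and the half-site (16.1%) were not found in the Areg window. Egfr had a GC box 9 bases before its start and Erbb2 none of the 5 motifs. Btc and Erbb4 held none of them either, and Tgfa held 2 GC boxes. Among the 6 members searched, the cyclic AMP response element and the TATA box were found in the Areg window alone. The windows of Ereg, Hbegf, Nrg1 and Erbb3 were not searched, so whether these motifs occur there is not known here.

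Ereg encodes epiregulin, which binds Egfr and Erbb4, and lies next to Areg. In the order of protein-coding genes on mouse chromosome 5, Epgn, Ereg, Areg and Btc are neighbours. At 3 months Ereg had 2.85, 2.91, 0.358 and 1.04 CPM in lesion libraries 1 to 4, against 0.0964, 0.0830, 0.251 and 0.124 CPM in eutopic uterus. The lesions all lay above the eutopic libraries, and libraries 1 and 2, which stand apart, were the highest. The log2 fold change was 3.66 ± 0.74 (SE, adjusted p = 0.000711 in edgeR), and 2.31 ± 0.76 (adjusted p = 0.0211 in edgeR) without those libraries. Genes of ovarian steroid-making cells summed to 23100, 272.3, 27.15 and 56.8 CPM in lesion libraries 1 to 4. Eutopic uterus had 11.78 to 15.76 CPM of them. The part of ovarian cells or other tissue in the Ereg difference was not tested. All lesion libraries at 3 months also lay above the sham libraries, which had 0.349, 0.323, 0.0639 and 0.0526 CPM. That gap was narrow and rested on the scaling of library sizes. Lesion library 3 held 18 counts (0.358 CPM) and sham library 1 held 20 counts (0.349 CPM).

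At 1 month Ereg was low in every group. It had 0.251, 0.3998, 0.515 and 0.158 CPM in lesions, against 0.140, 0.0509, 0.0331 and 0.268 CPM in eutopic uterus, and the groups overlapped. The log2 difference was 1.403 ± 0.73 (adjusted p = 0.175 in edgeR). Areg and Ereg thus had opposite signs in lesions at 3 months, while Btc, the other neighbour, had a log2 difference of 0.06 ± 0.34.

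Btc encodes a ligand of Egfr and Erbb4 and kept to a narrow range. It ran from 1.63 to 3.12 CPM in the 8 lesion libraries, from 1.54 to 3.05 CPM in the 8 eutopic libraries and from 1.42 to 3.06 CPM in 7 of the 8 sham libraries. Sham library 4 at 3 months had 5.68 CPM. The 95% interval of the log2 difference between lesions and eutopic uterus was -0.82 to 0.58 at 1 month and -0.64 to 0.76 at 3 months.

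Hbegf encodes a ligand of Egfr and Erbb4 whose human form is the receptor of diphtheria toxin. It had 8.44, 13.0, 9.25 and 9.80 CPM in lesions at 1 month, against 5.82, 8.51, 7.05 and 9.69 CPM in eutopic uterus and 6.06, 7.02, 6.33 and 6.80 CPM in sham uterus. The lesions lay above every sham library and overlapped with eutopic uterus, where the log2 difference was 0.38 ± 0.31 (adjusted p = 0.395 in edgeR). At 3 months lesion libraries 1 to 4 had 4.57, 8.92, 19.9 and 14.1 CPM, against 9.04, 6.996, 8.46 and 7.91 CPM in eutopic uterus. Lesion library 1 was the lowest of all 24 libraries and library 3 the highest.

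The log2 difference of Hbegf at 3 months was 0.55 ± 0.31 (adjusted p = 0.158 in edgeR). Without lesion library 1, the one with ovarian transcripts, it was 0.82 (adjusted p = 0.0102 in edgeR), and without lesion libraries 1 and 2 it was 1.07 ± 0.23 (adjusted p = 0.00126 in edgeR). In limma voom with sample weights Hbegf also passed (log2 0.93, adjusted p = 0.00383).

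Tgfa encodes a high-affinity ligand of Egfr. In 21 of the 24 libraries it lay between 12.0 and 18.9 CPM. The exceptions were lesion library 1 at 3 months with 103.4 CPM, sham library 4 at 3 months with 28.3 CPM and lesion library 4 at 3 months with 8.43 CPM. The log2 difference between lesions and eutopic uterus at 3 months was 1.15 ± 0.52 (adjusted p = 0.0818 in edgeR). It was -0.38 (adjusted p = 0.209 in edgeR) without lesion library 1, and passed the threshold without lesion library 2, 3 or 4 (log2 1.39 to 1.47), so 1 library decided its sign.

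Nrg1 encodes neuregulin 1, the neuregulin among the 6 ligands. At 1 month it had 5.95, 6.42, 5.09 and 5.74 CPM in lesions, against 2.26, 2.15, 1.11 and 1.54 CPM in eutopic uterus. The groups did not overlap. In the fit across all 24 libraries the log2 difference was 1.71 ± 0.91 (adjusted p = 0.183 in edgeR). With only the lesion and eutopic libraries of 1 month in the fit, the log2 difference was 1.70 ± 0.25 and passed (adjusted p = 0.00156 in edgeR), and it passed in limma voom on all libraries (adjusted p = 0.0054).

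Sham library 2 at 1 month had 13.6 CPM of Nrg1, against 0.879 to 1.47 CPM in the other sham libraries of that time. Sham library 4 at 3 months had 44.8 CPM, against 1.902 to 2.763 CPM in the other 3. At 3 months lesion libraries 1 and 2 had 2.64 and 2.49 CPM and libraries 3 and 4 had 8.52 and 8.10 CPM, against 1.60 to 3.26 CPM in eutopic uterus. Those lesion libraries thus fell into a lower and a higher pair, and the log2 difference was 1.30 ± 0.90 (adjusted p = 0.256 in edgeR), while limma voom gave 1.81 (adjusted p = 0.0406).

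**Figure D2:**
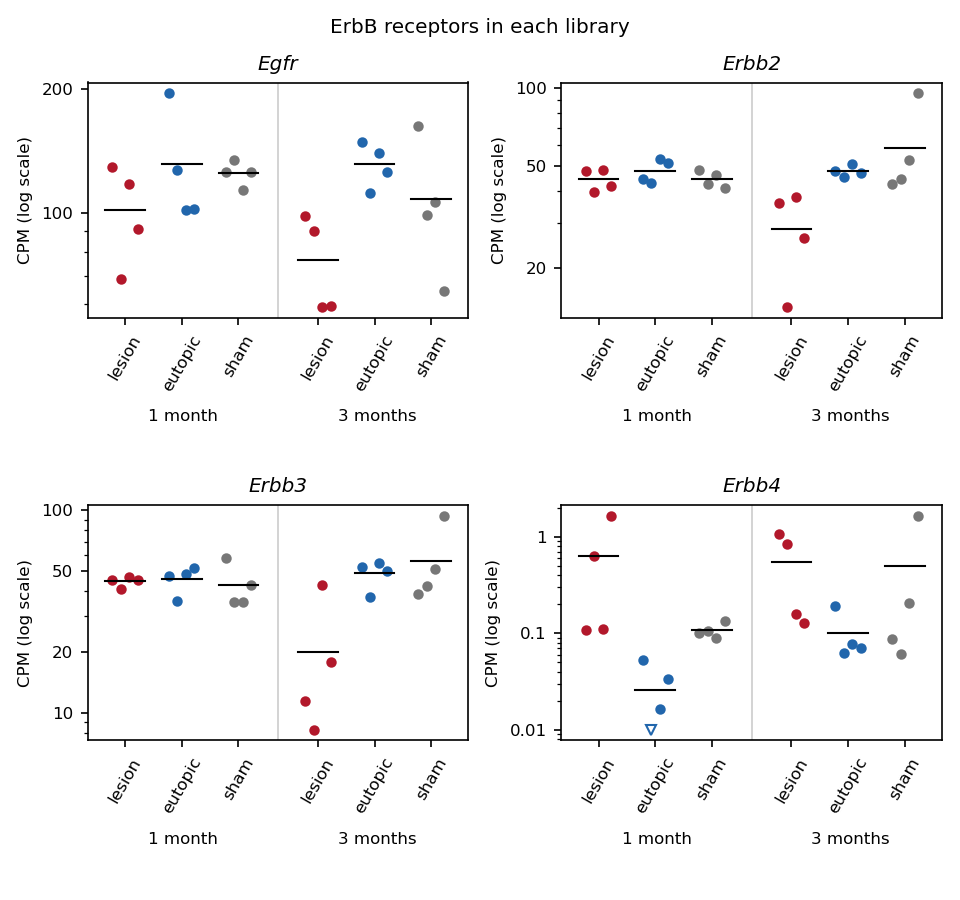
Level of each ErbB receptor in each library, in CPM on a log axis (each point a library, red lesions, blue eutopic uterus, grey sham uterus; bars are group means of 4 libraries; the open triangle is a library with 0 counts, drawn at the lower edge). Lesions at 3 months lie below eutopic uterus for Egfr and Erbb2, spread from 8.29 to 42.9 CPM for Erbb3, and Erbb4 stays under 2 CPM everywhere.

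The receptor genes Egfr, Erbb2 and Erbb3 were lower in lesions at 3 months. Egfr, the receptor of the EGF-like ligands, had 98.1, 90.3, 58.9 and 59.1 CPM in lesions, against 148.1, 111.5, 139.5 and 125.7 CPM in eutopic uterus, with no overlap. The log2 fold change was -0.78 ± 0.26 (SE, adjusted p = 0.0199 in edgeR). It was -0.67 without lesion library 3 or 4, where the call was lost (adjusted p = 0.0583 and 0.0619 in edgeR), and -1.15 ± 0.29 (adjusted p = 0.00388 in edgeR) without libraries 1 and 2. The lowest Egfr levels were in the lesion libraries with the higher epithelial marker sums. Other uterine markers were lower in the same comparison, 5 of 8 for stroma (median log2 -1.05) and 7 of 8 for smooth muscle (median log2 -1.48), where 17.1% of all genes tested were lower. Stroma markers summed to 1730, 10870, 6361 and 7005 CPM in lesion libraries 1 to 4, against 6999 to 12470 CPM in eutopic uterus. The smooth muscle sums were 2246, 2359, 6602 and 7288 CPM in lesions, against 7374 to 14920 CPM in eutopic uterus. The part of these tissues in the Egfr difference was not tested.

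Erbb2 had 35.8, 14.1, 37.8 and 26.2 CPM in lesions at 3 months, against 47.9, 45.3, 50.5 and 46.7 CPM in eutopic uterus and 42.4 to 95.4 CPM in sham uterus. All 4 lesions lay below all 8 uterine libraries of that time. The log2 fold change against eutopic uterus was -0.74 ± 0.24 (adjusted p = 0.0185 in edgeR). It was -0.51 (adjusted p = 0.0555 in edgeR) without lesion library 2 and -0.57 ± 0.23 (adjusted p = 0.0583 in edgeR) without libraries 1 and 2.

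Erbb3 had 11.4, 8.29, 42.9 and 17.9 CPM in lesions at 3 months, against 52.5, 37.6, 55.3 and 50.1 CPM in eutopic uterus. Lesion library 3 lay within the eutopic range and the other 3 below it. The log2 fold change was -1.28 ± 0.36 (adjusted p = 0.00834 in edgeR) and -0.69 ± 0.33 (adjusted p = 0.109 in edgeR) without lesion libraries 1 and 2. When the fit held only the compared groups, Erbb2 (log2 -0.73) and Erbb3 (log2 -1.26) both missed the threshold (adjusted p = 0.107 for each in edgeR).

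Erbb3 was lowest in lesion libraries 1 and 2, which had the lowest luminal marker sums, whereas Erbb2 was lowest in library 2 and not low for its group in library 1. Of the 12 luminal epithelium markers, 2 were lower in lesions at 3 months and none higher in edgeR, where 17.1% of all genes tested were lower, and of the 8 uterine gland markers all 8 were lower. The gland markers summed to 12.86 to 81.52 CPM in lesions and 314.8 to 397.1 CPM in eutopic uterus at 3 months, and the gland protease gene Prss28 was at 0 in lesion libraries 1, 3 and 4 and in eutopic libraries 1 and 4. Divided by the luminal marker sum, Erbb3 stood at 84.3, 136.2, 34.97 and 20.17 CPM per 1000 CPM of markers in lesion libraries 1 to 4, against 29.3 to 37.7 in eutopic uterus. On that scale Erbb2 stood at 264.0, 232.2, 30.8 and 29.5 in lesions, against 27.4 to 35.3 in eutopic uterus. Libraries 1 and 2 thus had less Erbb2 and Erbb3 in CPM but more of both per unit of epithelial marker. The part of tissue makeup in the differences of Erbb2 and Erbb3 was not tested.

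At 1 month the same receptors lay close together in lesions and eutopic uterus. Egfr had 129.1, 68.9, 117.2 and 91.0 CPM in lesions, against 195.2, 126.8, 101.3 and 101.9 CPM in eutopic uterus, with a log2 difference of -0.37 ± 0.25 (95% interval -0.90 to 0.16). Erbb2 stood at 44.3 ± 4.36 CPM in lesions, against 47.8 ± 4.998 CPM in the eutopic group (SD over 4 libraries), a log2 difference of -0.11 with an interval of -0.61 to 0.39. Erbb3 stood at 44.6 ± 2.53 CPM in lesions, against 46.04 ± 7.06 CPM in the eutopic group (SD over 4 libraries), and its interval was -0.79 to 0.70.

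Erbb4, the other neuregulin receptor, was scarce in all groups. At 1 month it had 6, 24, 6 and 95 counts in lesion libraries 1 to 4 (0.108, 0.640, 0.110 and 1.66 CPM), against 3, 0, 1 and 2 counts in eutopic uterus. The lesions lay above the eutopic libraries, 2 of them by few counts. The fitted log2 fold change was 4.51 ± 1.19 (adjusted p = 0.0125 in edgeR), and 3.32 (adjusted p = 0.0692 in edgeR) without lesion library 4. Erbb4 passed the filter on low counts only with lesions in the fit, the group where it was high, so its call supports no count of members. A fitted fold change against so few counts is imprecise, and its 95% interval was 2.03 to 6.99.

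Sham uterus at 1 month had 0.0894 to 0.135 CPM of Erbb4, also above eutopic uterus at 0 to 0.0526 CPM, and it overlapped with the lesions. At 3 months lesions had 1.09, 0.839, 0.159 and 0.127 CPM, against 0.193, 0.0623, 0.0772 and 0.0711 CPM in eutopic uterus. The groups overlapped and the log2 difference was 2.43 ± 1.03 (adjusted p = 0.0645 in edgeR). It passed in DESeq2 (log2 2.48, adjusted p = 0.0386) and, without lesion libraries 1 and 2, was 0.49 (adjusted p = 0.79 in edgeR). Sham library 4 at 3 months had 1.65 CPM, against 0.0605 to 0.208 CPM in the other 3.

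**Figure D3:**
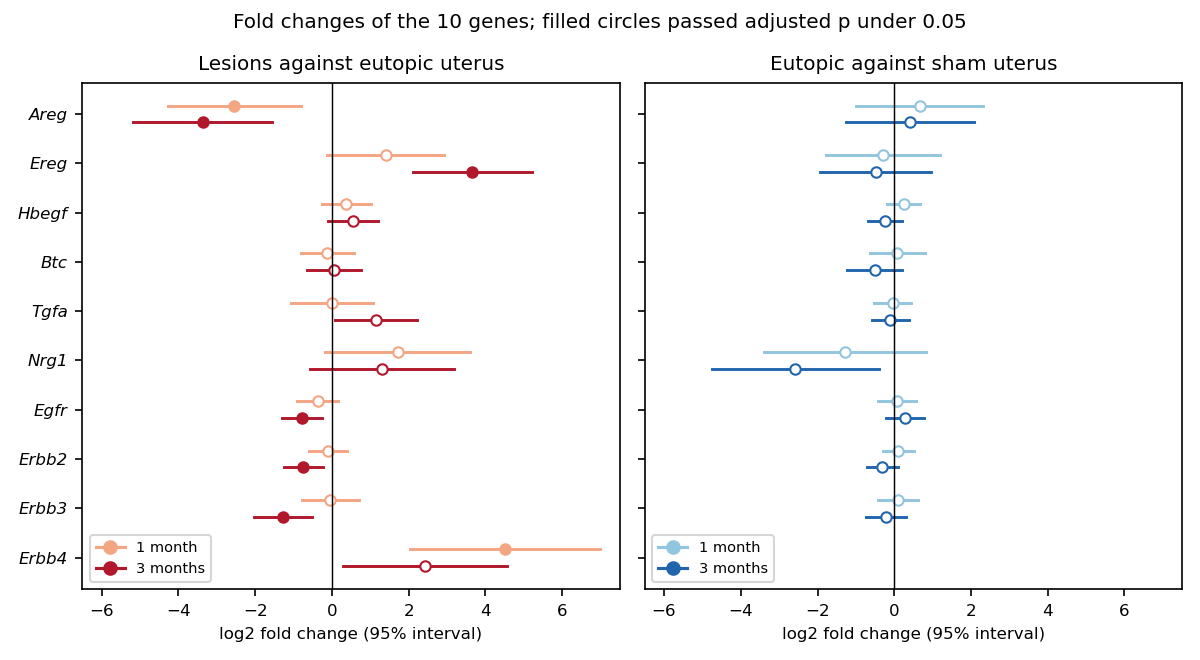
Log2 fold change of each of the 10 genes with its 95% interval (edgeR), for lesions against eutopic uterus on the left and eutopic against sham uterus on the right, lighter for 1 month and darker for 3 months. Filled circles passed an adjusted p of 0.05, of which there are 2 at 1 month and 5 at 3 months on the left and 0 on the right, where Erbb4 was not tested.

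No tested gene passed between eutopic uterus of mice with endometriosis and sham uterus. At 1 month 0 of the 9 genes tested passed in edgeR, 0 had an unadjusted p under 0.05, and the smallest adjusted p was 0.881. Of 21208 genes tested 0.00943% passed, and 4.81% had such an unadjusted p. At 3 months 0 of 9 passed in edgeR and 1, Nrg1, had an unadjusted p under 0.05, where 0% of all genes tested passed and 4.77% had such a p. DESeq2 and limma voom also called 0 genes of the 9 at both times. For Nrg1 the log2 difference at 3 months was -2.58 ± 1.02 (adjusted p = 0.992 in edgeR), and it was -0.14 without sham library 4.

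The intervals set how large a difference between eutopic and sham uterus these libraries leave room for. For Egfr the log2 interval was -0.42 to 0.57 at 1 month and -0.22 to 0.78 at 3 months. For Erbb2 it was -0.31 to 0.52 at 1 month and -0.72 to 0.10 at 3 months. Areg, which varied more between libraries, had intervals of -1.003 to 2.324 at 1 month and -1.26 to 2.09 at 3 months. Hbegf had -0.19 to 0.68 at 1 month and -0.68 to 0.19 at 3 months.

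Sham library 4 at 3 months stood at the edge of its group in all 10 genes. It had the group's highest Hbegf, Btc, Tgfa, Nrg1, Erbb2, Erbb3 and Erbb4, and the lowest Areg, Ereg and Egfr. How often this library lay at the edge of its group over all genes tested was not counted. Erbb2 was 95.4 CPM there, against 42.4 to 52.4 CPM in the other sham libraries, and Erbb3 was 94.1 CPM, against 38.7 to 51.4 CPM. The library also had a luminal marker sum of 2311 CPM against 997.4 to 1716 CPM, keratinocyte markers of 35.13 CPM against 6.981 to 7.698 CPM, and 16.98 CPM of the progesterone-induced epithelial signal Ihh against 42.7 to 79.6 CPM. Muc1 had 108 CPM there, against 24.85 to 59.35 CPM in the other sham libraries of that time. Pgr, Ihh and Muc1 were chosen after their values were seen. The part of that library's state in these values was not tested.

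With time, lesions at 3 months against 1 month had more Ereg and less Erbb3. Both passed in edgeR, 2 of the 10 genes where 10.9% of all genes tested passed. Ereg averaged 1.79 ± 1.29 CPM at 3 months and 0.331 ± 0.158 CPM at 1 month (SD, n = 4 each), which gave a log2 fold change of 2.43 ± 0.69 (adjusted p = 0.0277 in edgeR). Erbb3 averaged 20.1 ± 15.7 CPM at 3 months and 44.6 ± 2.53 CPM at 1 month (SD, n = 4 each), which gave a log2 fold change of -1.15 ± 0.36 (adjusted p = 0.0458 in edgeR). The lesion groups of the 2 times overlapped in both genes.

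Neither call over time was firm. Without the lesion libraries that stood apart, the log2 difference of Ereg was 1.19 (adjusted p = 0.353 in edgeR) and that of Erbb3 -0.58 (adjusted p = 0.295 in edgeR). Ereg also lost its call without lesion library 1, 3 or 4 of 1 month or library 2 of 3 months. Erbb3 kept its call only without lesion library 3 of 3 months (log2 -1.83, adjusted p = 0.000529 in edgeR). Erbb2 was the gene whose lesion libraries at 3 months, 14.1 to 37.8 CPM, lay wholly below those at 1 month, 39.6 to 48.1 CPM, as groups did not overlap for 9.29% of all genes tested, with a log2 difference of -0.64 ± 0.24 (adjusted p = 0.0921 in edgeR).

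In uterus, 0 of 9 genes passed in edgeR for 3 months against 1 month, in eutopic tissue (0.00943% of all genes tested passed, and 0 of the 9 had an unadjusted p under 0.05, against 2.46% of all) and in sham tissue (0% passed, and 1 of the 9 had such a p, against 10.7% of all). DESeq2 and limma voom called 0 of them too. That 1 gene was Hbegf, with 9.57 ± 3.03 CPM at 3 months and 6.55 ± 0.439 CPM at 1 month in sham uterus (SD, n = 4 each), a log2 difference of 0.55 ± 0.21 (adjusted p = 0.383 in edgeR).

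The change of the lesion-eutopic difference between the times was tested for all 10 genes, and 0 passed in edgeR, DESeq2 or limma voom, where 0.769% of all genes tested passed in edgeR. At an unadjusted p under 0.05 there were 2, against 14.8% of all genes tested. The difference grew by 2.26 on the log2 scale for Ereg (adjusted p = 0.304 in edgeR). For Erbb3 the change was -1.23 (adjusted p = 0.254 in edgeR), and it passed without lesion library 3 of 3 months (log2 -1.91, adjusted p = 0.0101 in edgeR). The calls at 3 months that were absent at 1 month are therefore not shown to differ between the times with all libraries in the fit. For the eutopic-sham difference 0 of 9 genes passed in edgeR, DESeq2 or limma voom, with 0 at an unadjusted p under 0.05, where 0.00943% of all genes tested passed and 3.47% had such a p.

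Ordered by mean level, neighbouring groups overlapped at every step in all members but Erbb2 and Erbb4. How often such steps overlap over all genes tested was not counted. For Areg the order from high to low was eutopic uterus at 1 month, sham at 1 month, eutopic at 3 months, sham at 3 months, lesions at 1 month and lesions at 3 months. For Ereg lesions at 3 months stood first, then lesions at 1 month, then the 4 uterine groups at 0.123 to 0.197 CPM. Erbb2 showed a gap between lesions at 1 month and lesions at 3 months, the lowest group, and Erbb4 between eutopic uterus at 3 months and at 1 month, the lowest group. Erbb4 had only 0 to 3 counts per library in eutopic uterus at 1 month.

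Among the 10 genes, Erbb2 and Erbb3 followed each other most closely across the 24 libraries (Pearson r = 0.88 of log2 CPM), and Ereg ran against Erbb3 (r = -0.80) and Erbb2 (r = -0.72). These correlations describe libraries that share groups and tissue makeup. Among the protein-coding genes most like Erbb3 was Celsr2 (r = 0.972, and 0.958 after group means were removed). The pair most like Erbb2 was Bnipl (r = 0.961 and 0.931) and Ccdc120 (r = 0.956 and 0.917). Egfr was most like Hykk (r = 0.937 and 0.897) and Fat4 (r = 0.926 and 0.919), and Erbb4 like Siglec15 (r = 0.859 and 0.815) and Rab11fip4 (r = 0.839 and 0.793).

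For the ligands, Areg was most like Acot7 (r = 0.929 and 0.877) and Rgs2 (r = 0.904 and 0.817). Ereg was most like St3gal3 (r = 0.889 and 0.704) and Plekhf1 (r = 0.878 and 0.617), and Hbegf like Sprr1a (r = 0.909 and 0.911) and Lamb3 (r = 0.897 and 0.906). Tgfa had Jade3 (r = 0.947 and 0.96) and Tspan15 (r = 0.933 and 0.95), whose ranks agreed less (Spearman rho 0.582 and 0.47), as 1 library carried much of the spread. Nrg1 had A2m (r = 0.873 and 0.827) and Cpne4 (r = 0.867 and 0.928), and Btc had E030025P04Rik (r = 0.752 and 0.784) and Jup (r = 0.751 and 0.751). The ranks of the Btc pair also agreed less (Spearman rho 0.512 and 0.503).

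The other genes of the pathway were counted from 5 lists. Over all genes tested in lesions against eutopic uterus, 12.0% were higher and 8.76% lower at 1 month, and 23.4% were higher and 17.1% lower at 3 months. Of the 5 other EGF family ligands, 3 were tested and 0 passed in edgeR at 1 month, with a median log2 difference of -0.45. At 3 months Egf was higher in lesions (log2 3.03 ± 0.75, adjusted p = 0.00336 in edgeR), while Nrg4 (-2.27 ± 0.46) and Nrg2 (-1.25 ± 0.34) were lower. Egf had 12.3 ± 13.1 CPM in lesions (2.81 to 31.26 CPM), against 1.504 ± 0.179 CPM in the eutopic group (SD over 4 libraries). Epgn and Nrg3 stayed under 0.15 CPM in all libraries and were not tested.

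Among 9 genes of ligand shedding, 4 were higher and 0 lower at 1 month, and 4 were higher and 1 lower at 3 months (medians 0.34 and 0.30 on the log2 scale), where 12.0% and 8.76% of all genes were at 1 month and 23.4% and 17.1% at 3 months. Adam17, the protease that releases most Egfr ligands, had 125.9 ± 18.7 CPM in lesions at 1 month, against 82.4 ± 9.27 CPM in the eutopic group (SD over 4 libraries), with a log2 fold change of 0.61 ± 0.14 (adjusted p = 0.00569 in edgeR). At 3 months it had 167.5 ± 41.1 CPM in lesions, against 82.7 ± 5.36 CPM in the eutopic group (SD over 4 libraries), with a log2 fold change of 1.02 ± 0.14 (adjusted p = 2.76e-05 in edgeR). Timp3, an inhibitor of ADAM17, was higher at both times too (log2 0.79 ± 0.19 and 1.08 ± 0.19), as was Rhbdf2, which carries ADAM17 to the cell surface (0.44 ± 0.15 and 0.98 ± 0.15). The protease gene Adam12 was lower at 3 months (-2.10 ± 0.29).

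Of 18 ErbB feedback inhibitors, 5 were higher and 1 lower at 1 month and 8 were higher and 2 lower at 3 months, where 20.7% of all genes tested passed at 1 month and 40.5% at 3 months. Dusp5, a phosphatase that inactivates ERK in the nucleus, rose at both times (log2 1.31 ± 0.25 and 1.77 ± 0.26), as did Ptpn1 (0.91 ± 0.19 and 1.31 ± 0.19), a phosphatase that acts on Egfr. Errfi1, an inhibitor that binds the Egfr kinase, fell to 111.4 ± 9.20 CPM in lesions at 1 month, against 235.9 ± 58.2 CPM in the eutopic group (SD over 4 libraries). Its log2 fold change was -1.08 ± 0.25 at 1 month and -1.03 ± 0.25 at 3 months (adjusted p = 0.00632 and 0.00297 in edgeR). Lrig3, of a family of ErbB inhibitors, was lower at 3 months (-0.71 ± 0.19).

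Among 24 adaptors and kinases, 3 were higher and 2 lower at 1 month and 11 were higher and 2 lower at 3 months. At 1 month the share called was close to the 12.0% higher and 8.76% lower of all genes tested, and at 3 months these were 23.4% and 17.1%. Map2k1, the kinase above ERK, rose at both times (log2 0.39 ± 0.10 and 0.78 ± 0.10). Akt1 also rose at both (0.28 ± 0.08 and 0.24 ± 0.08), and Stat5b at 3 months (1.06 ± 0.17). The ERK1 gene Mapk3 (-0.46 ± 0.12) and Araf (-0.26 ± 0.09) fell at 1 month, and Braf (-0.42 ± 0.16) and Pik3r1 (-0.45 ± 0.17) at 3 months.

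Of 16 early genes known to be induced through ERK, 4 were higher and 2 lower at 1 month and 7 were higher and 2 lower at 3 months, where 20.7% of all genes tested passed at 1 month and 40.5% at 3 months. Egr2 had 16.7 ± 8.83 CPM in lesions at 1 month, against 3.51 ± 0.607 CPM in the eutopic group (SD over 4 libraries), and its log2 fold change was 2.25 ± 0.56 at 1 month and 3.18 ± 0.58 at 3 months (adjusted p = 0.00914 and 0.000291 in edgeR). Fosl1 (log2 2.55 ± 0.74 and 3.44 ± 0.75) and Plaur (1.51 ± 0.47 and 2.60 ± 0.49) rose at both times. Myc fell at both times (-0.98 ± 0.17 and -1.57 ± 0.17), as did Phlda1 (-0.50 ± 0.18 and -0.97 ± 0.18).

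Without the 3 lesion libraries that stood apart, an alternative chosen after seeing the data, the calls at 1 month were 0 of the other ligands, 3 for shedding, 6 for feedback, 7 for adaptors and kinases and 8 for early genes. At 3 months they were 2, 5, 8, 10 and 9 in that order. These counts join both directions. Over all genes tested in that fit, 14.3% were higher and 12% lower at 1 month, and 21.7% higher and 18.7% lower at 3 months. Of the genes named above, Rhbdf2 (adjusted p = 0.172), Akt1 (0.0596) and Araf (0.0504) then missed the threshold at 1 month in edgeR. At 3 months Nrg2 (adjusted p = 0.0588), Lrig3 (0.0796) and Pik3r1 (0.216) missed it in edgeR, and Egf had a log2 fold change of 2.32 ± 0.29 and Stat5b one of 0.59 ± 0.12.

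Macrophage markers were counted beside these lists. All 8 were called higher in lesions at both times, where 12.0% of all genes tested were higher at 1 month and 23.4% at 3 months. At 1 month they summed to 1712 to 4868 CPM in lesions, against 476.1 to 631.6 CPM in the eutopic group. At 3 months the sums were 286.2, 9685, 4235 and 9549 CPM in lesion libraries 1 to 4, against 405.2 to 711.3 CPM. Lesion library 1 thus lay below the eutopic range. The part of immune cells in the counts of these 5 lists was not tested. In eutopic against sham uterus 0 genes of the 5 lists passed in edgeR at either time.

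**Figure D4:**
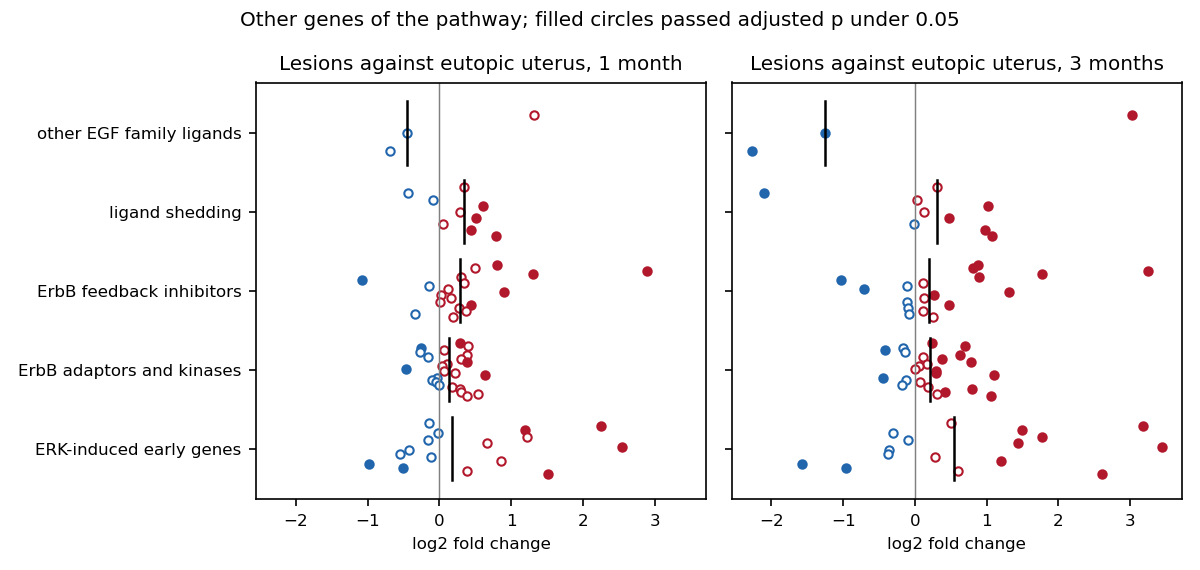
Log2 fold change of the tested members of 5 pathway lists in lesions against eutopic uterus at 1 month and at 3 months (each point a gene, red above 0 and blue below, filled where it passed an adjusted p of 0.05 in edgeR; vertical bars are list medians). Both directions occur in most lists, and the share of all genes tested that passed was 20.7% at 1 month and 40.5% at 3 months.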

How the data were processed

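Counts of reads per gene, deposited by the authors as 1 table for 24 mouse libraries, were used as deposited. Per the submitters' processing notes, bcl2fastq 1.9.0, STAR 2.7.9a, edgeR and genome build mm39 were named, without their roles. For annotation release, counting mode and strand, a value is not given in the sources used here. All sample columns were matched to labels.

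Genes were tested with edgeR 4.0.16 (R 4.3.3) by the quasi-likelihood test after TMM scaling and filterByExpr (minimum count 10), with Benjamini-Hochberg adjustment over all genes tested and a threshold of 0.05. Comparisons with lesions used 1 fit on 24 libraries, and uterine comparisons 1 fit without lesions. Intervals are 95% intervals of the fitted log2 fold change. CPM used TMM-scaled library sizes, and correlations used log2 CPM with a prior count of 2. The procedure was tested on simulated counts.

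The 10 members and all gene lists were chosen with earlier results of these data known. The text names all members, up to 2 called genes per pathway list, direction and comparison with the smallest adjusted p, and the 2 protein-coding genes most correlated with each member. For Erbb3, 1 of these is not reported here. DESeq2 1.42.0, limma 3.58.1 voom with sample weights, other scaling, no filter, only the compared groups, a replicate block and left-out libraries were tried as alternatives. Promoters came from RefSeq GRCm38.p6, and exon lengths from GENCODE M21. Counts have no molecular identifiers, so p-values reflect spread between libraries, which may be technical.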

Additional observations from a re-analysis of the deposited data

Results flagged for a closer look

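In 7 of the 60 groups formed by a gene and a sample group, 1 library lay far from the other 3 by Dixon's criterion. Its chance rate of about 1 in 20 holds for independent, normally distributed values. These groups share libraries across genes and CPM were not put on a log scale, so the 7 cannot be set against that rate. Sham library 4 at 3 months accounted for 4 of the 7. It had 5.676 CPM of Btc, 28.29 CPM of Tgfa against 12.55 to 13.7 CPM in the other 3, 44.83 CPM of Nrg1 against 1.902 to 2.763 CPM, and 1.647 CPM of Erbb4 against 0.0605 to 0.208 CPM. Lesion library 1 at 3 months had 103.4 CPM of Tgfa, against 8.43 to 15.6 CPM in the other 3. Sham library 2 at 1 month had 13.62 CPM of Nrg1, against 0.879 to 1.47 CPM. Eutopic library 1 at 3 months had 0.1927 CPM of Erbb4, or 10 counts, against 0.0623 to 0.0772 CPM.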

How the results depend on the processing

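The 5 calls between lesions and eutopic uterus at 3 months became 3 when the fit held only the compared groups, and 5 to 6 with each library left out. The 2 calls at 1 month became 1 without a filter and 0 to 2 with each library left out. The 2 calls for lesions at 3 months against 1 month became 1 without a filter, 0 in limma voom, 0 with only the compared groups, 1 without the lesion libraries that stand apart, which was Hbegf, and 0 to 3 with each library left out. The change of the lesion-eutopic difference gave 0 to 1 with each library left out. The other counts of members stayed at 0. The cause was not tested. The counts of this paragraph stand without the share of all genes tested that passed in each setting. They therefore do not tell a change of the members from a change of the whole comparison. Shared replicate numbers were not taken to pair the libraries, since the labels do not tie them to an animal and not every pair's correlation was over 0.1. Same-numbered libraries had correlations of deviations of 0.0735 to 0.191 for lesions and eutopic uterus at 1 month, 0.00343 to 0.337 at 3 months, and -0.0465 to 0.0654 and -0.136 to 0.152 for eutopic and sham uterus. Between lesions and eutopic uterus, 4 of 4 libraries at 1 month correlated best with their own number, and at 3 months 3 of 4. With a replicate block, the lesion-eutopic comparison at 3 months had 0 calls and lesions over time 0.

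Signs turned for genes that had no call. Without the lesion libraries that stand apart, the log2 difference to eutopic uterus was 0.009548 for Tgfa at 1 month, and -0.2455 for Btc and -0.3975 for Tgfa at 3 months. Over time in lesions it was then -0.344 for Tgfa. In limma voom, lesions against eutopic uterus at 3 months gave -0.1831 for Btc and -0.1993 for Tgfa, and lesions over time -0.1294 for Tgfa. For eutopic against sham uterus voom gave 0.0176 for Tgfa, 0.1531 for Nrg1 and -0.1673 for Egfr at 1 month, and 0.06985 for Ereg, 0.009033 for Btc, 0.2007 for Tgfa and 0.06453 for Erbb3 at 3 months. Without sham library 4 the 3-month values were 0.007068 for Btc, 0.2776 for Tgfa, 0.1498 for Erbb3 and 0.03662 for Erbb2.

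With each library left out in turn, eutopic against sham uterus at 1 month ran from -0.08503 to 0.2743 for Btc, -0.1744 to 0.1839 for Egfr, -1.005 to 0.0428 for Ereg, -1.619 to 0.5671 for Nrg1 and -0.1314 to 0.07451 for Tgfa. At 3 months it ran from -0.7431 to 0.007068 for Btc, -0.4355 to 0.03662 for Erbb2, -0.3621 to 0.1498 for Erbb3 and -0.2182 to 0.2776 for Tgfa. Lesions against eutopic uterus ran from -0.1564 to 0.01005 for Erbb3 and -0.1059 to 0.08826 for Tgfa at 1 month, and -0.147 to 0.293 for Btc and -0.3821 to 1.468 for Tgfa at 3 months. Lesions over time ran from -0.3197 to 1.53 for Tgfa. Depth limits Erbb4 and Ereg most, with under 10 counts in several libraries.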
